A study of Mus musculus with 24 samples.

Results

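The prostaglandin and leukotriene genes examined here were 10 genes of arachidonate metabolism, chosen by name from the 25160 genes of the deposited count table: Pla2g4a, Ptgs1, Ptgs2, Ptges, Ptges2, Ptges3, Ptger2, Ptger4, Alox5 and Alox5ap. Each gene was represented by its RefSeq transcript with the highest mean count, and all 10 passed the filter on low counts, which left 12198 genes for testing. RNA was sequenced from RAW264.7 cells, a mouse macrophage line, in 2 stable derivatives with a doxycycline-inducible construct, each carried by 1 line, so the construct and other differences between the lines cannot be told apart. The groups, of 4 libraries each and 24 libraries in all, were the Nur77 line at 0, 1 and 5 h of lipopolysaccharide (LPS, a part of the bacterial cell wall that macrophages sense) and the GFP line at 0, 1 and 5 h of LPS. Every group, the 0 h groups included, had received 50 ng/ml doxycycline for 18 h, and the LPS dose was 500 ng/ml. Nur77, the product of Nr4a1, is a nuclear receptor, GFP is a fluorescent protein, and the design asks how the Nur77 construct bears on the LPS response. The labels do not say whether the 4 replicates were separate cultures, and p-values therefore cover only the spread among these libraries, which may be technical.

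Prostaglandins are made in 3 steps. The cytosolic phospholipase A2 encoded by Pla2g4a frees arachidonate from membranes, the cyclooxygenases COX-1 (Ptgs1) and COX-2 (Ptgs2) turn it into prostaglandin H2, and terminal synthases such as the inducible microsomal enzyme encoded by Ptges turn that into prostaglandin E2. Prostaglandin E2 signals through the receptors EP2 (Ptger2) and EP4 (Ptger4), which raise cyclic AMP in macrophages and other cells. The competing branch uses 5-lipoxygenase (Alox5) with its activating protein FLAP (Alox5ap) to make leukotrienes. COX-2 is the form that macrophages are known to induce on contact with LPS, while COX-1 is the form present in resting cells.

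Nr4a1 counts did not show the construct. Nr4a1 had 2.74, 3.71, 3.27 and 3.37 CPM (counts scaled to 1e+06 per library) in the Nur77 line at 0 h, against 3.12, 2.46, 3.2 and 3.34 CPM in the GFP line at 0 h. At 1 h the values were 42.4, 9.29, 40 and 39.8 CPM in the Nur77 line and 52, 63.2, 65 and 66.8 CPM in the GFP line, and at 5 h 4.51, 5.12, 5.2 and 4.74 CPM in the Nur77 line and 3.13, 3.12, 3.09 and 2.08 CPM in the GFP line. The lines did not differ at 0 h beyond their spread (log2 fold change 0.1 ± 0.4, standard error, adjusted p = 0.868). At 1 h Nr4a1 was called lower in the Nur77 line (-0.91 ± 0.25, adjusted p = 0.00488), against the direction the label would give, and all Nur77 libraries were below all GFP libraries. The 5 h difference was 0.74 ± 0.37 (adjusted p = 0.108). The sources used here do not give the sequence of the construct or say whether its reads were counted as Nr4a1, so these counts do not check the labels, and "the Nur77 line" below means the libraries labelled Nur77. Gene totals were 8134143 to 29275847 per library. All 10 macrophage markers listed were detected, with group means of their summed level from 6526 to 11450 CPM. The 4 epithelial markers were at 0, and the summed levels of the fibroblast, lymphocyte, mast cell and neutrophil lists were at most 4.58 CPM in any library. Replicate 2 of the Nur77 line at 1 h stood apart: its median correlation with the other libraries of its group was 0.977, against at least 0.989 for every other library, and its Nr4a1 level was the lowest of its group. It widened the spread estimate of several of the 10 genes, in comparisons that do not use it too. Calls of the 10 genes that change without it are therefore given with and without it. Values of single genes outside the 10, Nr4a1 included, are given only with it.

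LPS changed 8 of the 10 genes in both lines by 5 h. At 5 h of LPS against 0 h, Ptgs2, Ptges, Ptger2 and Ptger4 rose at least 2.98-fold in each line, Ptges3 rose less, and Ptgs1, Alox5 and Alox5ap fell. Ptges2 was not called in either line, with log2 fold changes of 0 ± 0.11 in the Nur77 line (adjusted p = 0.993) and 0.08 ± 0.1 in the GFP line (adjusted p = 0.491). Pla2g4a was called only in the GFP line. In the Nur77 line 5 of the 10 genes rose and 3 fell, and in the GFP line 6 rose and 3 fell. Of all tested genes, 66.7% were called in the Nur77 line at 5 h (32.5% higher and 34.2% lower) and 62.6% in the GFP line (30.6% higher and 32.0% lower) at an adjusted p under 0.05 (edgeR quasi-likelihood test with Benjamini-Hochberg adjustment, as throughout), so the count of changed members is read against a response that reached most tested genes. Past an absolute log2 fold change of 1, where 18.5% of tested genes were called in the Nur77 line and 16.2% in the GFP line, stood 7 of the 10 members in the Nur77 line and 5 in the GFP line. The median log2 fold change of the 10 members was 0.25 in the Nur77 line and 0.56 in the GFP line, against -0.03 and -0.02 over all tested genes in the same lines. In these bulk libraries fewer responding cells and less RNA per cell cannot be told apart.

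The 4 genes that rose most by 5 h in both lines differed in course: at 1 h Ptger2 was called in neither line, while the others rose. Their promoters are shown because all 4 were higher at 5 h of LPS than at 0 h in both lines. Each is the window from 250 bases before to 30 bases after the annotated start in RefSeq, build GRCm38.p6, 5′ to 3′ on the strand of the gene. The Ptges window lies inside the RefSeq span of that gene, and the outer end of the span, at 30931020, was not searched. Capitals mark matches of the 9 motifs listed after the sequences.
Ptgs2 (chr1:150099781-150100060, plus strand): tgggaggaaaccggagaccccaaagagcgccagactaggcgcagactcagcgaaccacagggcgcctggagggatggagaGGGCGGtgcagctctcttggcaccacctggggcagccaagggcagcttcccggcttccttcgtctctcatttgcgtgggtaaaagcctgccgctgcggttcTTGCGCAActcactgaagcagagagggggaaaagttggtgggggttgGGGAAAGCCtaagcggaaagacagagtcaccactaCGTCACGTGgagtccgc
Ptges (chr2:30903268-30903547, minus strand): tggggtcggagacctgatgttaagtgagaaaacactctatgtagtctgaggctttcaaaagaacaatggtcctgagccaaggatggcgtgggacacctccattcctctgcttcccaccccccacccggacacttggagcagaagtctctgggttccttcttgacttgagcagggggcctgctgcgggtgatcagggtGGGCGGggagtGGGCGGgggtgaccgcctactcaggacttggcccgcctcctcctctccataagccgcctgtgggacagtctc
Ptger2 (chr14:44987861-44988140, plus strand): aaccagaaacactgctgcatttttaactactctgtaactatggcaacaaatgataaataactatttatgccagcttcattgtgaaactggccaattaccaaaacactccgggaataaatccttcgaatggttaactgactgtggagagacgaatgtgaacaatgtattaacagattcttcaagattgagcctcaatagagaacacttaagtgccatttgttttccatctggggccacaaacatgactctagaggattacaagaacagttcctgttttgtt
Ptger4 (chr15:5244158-5244437, minus strand): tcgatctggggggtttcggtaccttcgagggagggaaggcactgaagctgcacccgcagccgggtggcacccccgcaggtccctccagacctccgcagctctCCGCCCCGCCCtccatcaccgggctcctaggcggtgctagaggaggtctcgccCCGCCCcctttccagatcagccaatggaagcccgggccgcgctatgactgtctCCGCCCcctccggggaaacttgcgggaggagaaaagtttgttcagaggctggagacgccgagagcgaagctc

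Both strands of each window were searched for NF-kB (GGGANNNCC), AP-1 (TGANTCA), the cyclic AMP element CRE (TGACGTCA) and its core (CGTCA), the E-box (CACGTG), C/EBP (TTGCNNAA), the NBRE bound by Nur77 (AAAGGTCA), the GC box (GGGCGG) and the TATA box (TATAAA). The Ptgs2 window held an NF-kB match, GGGAAAGCC, from -22 to -14 relative to the start, and a C/EBP match, TTGCGCAA, from -69 to -62 that reads as a match on both strands. It also held a GC box from -170 to -165, a CRE core from 14 to 18 and an E-box from 17 to 22 that shares 2 bases with that core. Of 32851 promoter windows of the same length, 17.4% held the NF-kB letters, 10.4% the C/EBP letters, 19.9% the CRE core, 6.79% the E-box and 34.7% the GC box. The Ptges window held GC boxes from -53 to -48 and from -42 to -37, and the Ptger4 window held 4 GC boxes on the opposite strand between -148 and -37, of which 2 share a base. None of the 9 motifs was found in the Ptger2 window. AP-1, the full CRE and the NBRE, held by 7.46%, 1.74% and 1.45% of all windows, were found in none of the windows of the 9 members in the table. These matches describe letters in the window and say nothing of which factors bind there.

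**Figure D1:**
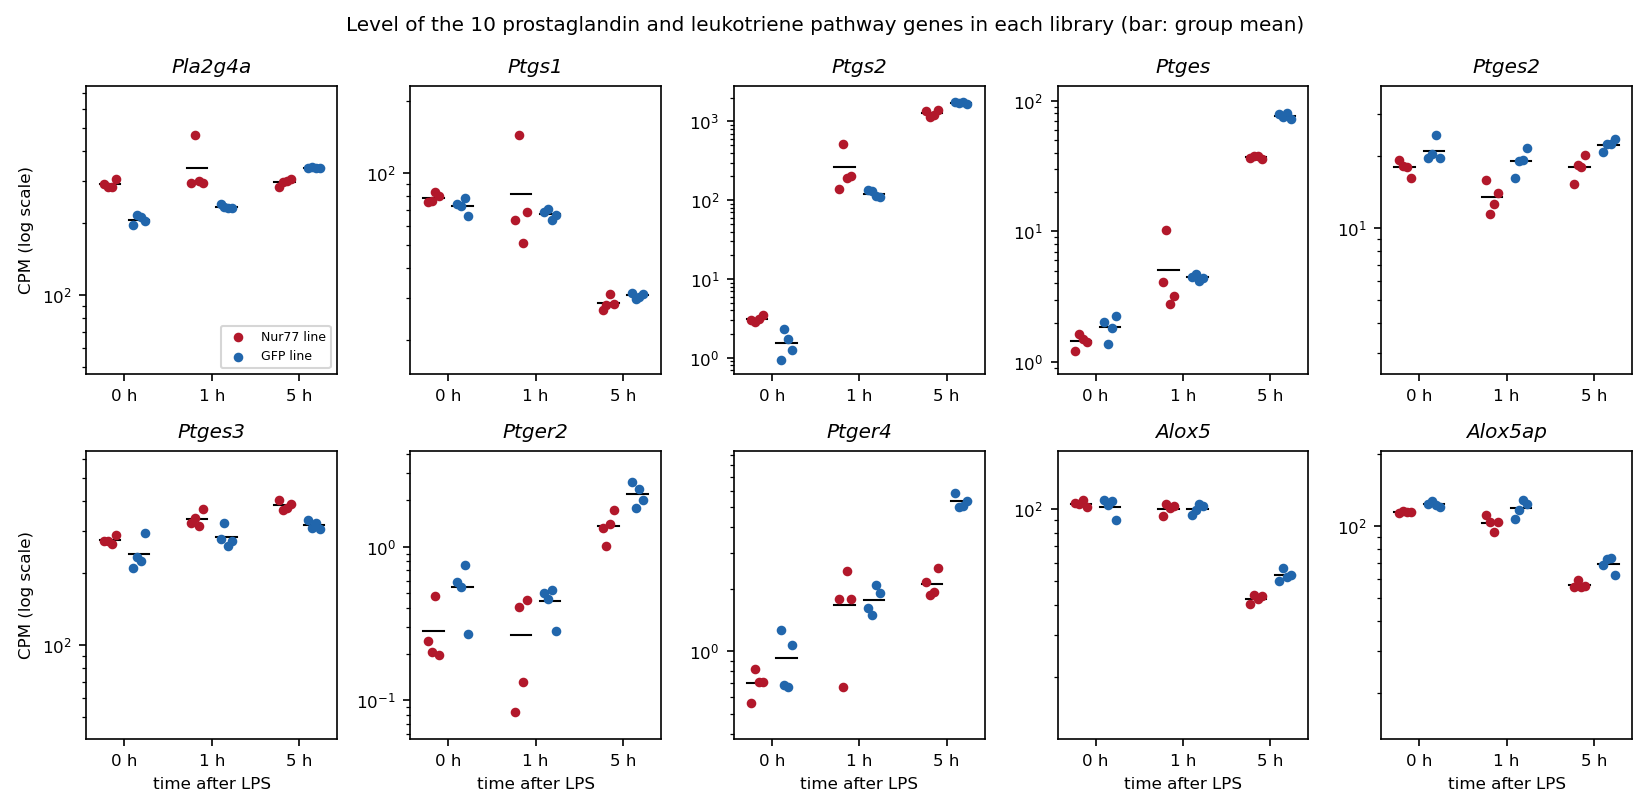
Level of each of the 10 genes in every library (CPM, log scale) at 0, 1 and 5 h of LPS, with the Nur77 line (red) left of the GFP line (blue) and a bar at each group mean. The 5 h points of Ptges and Ptger4 form separate clouds, with the Nur77 line at 35.9 to 38 CPM and the GFP line at 72 to 81 CPM for Ptges.

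Ptgs2, the gene of inducible COX-2 (chr1:150100031-150108234), showed the steepest response of the 10 genes. In the Nur77 line its levels were 2.98, 2.89, 3.09 and 3.5 CPM at 0 h, 138, 523, 193 and 200.2 CPM at 1 h, and 1344, 1139, 1210.3 and 1405 CPM at 5 h. GFP libraries held 0.929, 2.33, 1.73 and 1.26 CPM at 0 h, 134, 129, 112 and 111 CPM at 1 h, and 1757, 1733, 1737 and 1680.4 CPM at 5 h. The order of the lines thus turned over with time: every Nur77 library was above every GFP library at 0 h and at 1 h, and every Nur77 library was below every GFP library at 5 h. Ptgs2 was 2.17-fold higher in Nur77 libraries at 1 h (1.12 ± 0.26 on the log2 scale, adjusted p = 0.00146), a value that the library standing apart raised: without it the log2 fold change was 0.55 ± 0.11 (adjusted p = 0.000241).

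Ptgs2 at 0 h and at 5 h missed the threshold with all libraries and passed it without that 1 library. At 0 h the log2 fold change of the Nur77 over the GFP line was 0.98 ± 0.51 (adjusted p = 0.133), and 0.98 ± 0.23 with an adjusted p of 0.00118 when the library standing apart was left out. These 0 h levels rest on 37 to 54 counts per library in the Nur77 line and 11 to 41 in the GFP line. At 5 h it was -0.44 ± 0.26 (adjusted p = 0.171), and -0.44 ± 0.1 without that library (adjusted p = 0.000725). The LPS response by 5 h was 407-fold in the Nur77 line (8.67 ± 0.39 on the log2 scale, adjusted p = 5.95e-14) and 1092-fold in the GFP line (10.09 ± 0.41, adjusted p = 1.46e-14). The difference between those responses was -1.42 on the log2 scale (95% interval -2.6 to -0.24, adjusted p = 0.141), and its adjusted p was 0.000309 without that library. By 1 h the responses were 84.2-fold in the Nur77 line and 76.7-fold in the GFP line (6.4 in the Nur77 line and 6.26 in the GFP line on the log2 scale), and their difference was 0.13 (95% interval -1.1 to 1.37, adjusted p = 0.93). Without the library standing apart the Nur77 response was 5.82 ± 0.15, and the difference turned to -0.44 ± 0.25 (adjusted p = 0.387).

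Ptges, the gene of the inducible microsomal prostaglandin E synthase (chr2:30889471-30931020), rose by 1 h and further by 5 h in both lines. At 5 h it reached a lower level in the Nur77 line. Its levels in the Nur77 line were 1.21, 1.65, 1.49 and 1.43 CPM at 0 h, 4.08, 10.2, 2.79 and 3.23 CPM at 1 h, and 36.3, 38, 37.6 and 35.9 CPM at 5 h. Levels in GFP libraries were 2.03, 1.37, 1.81 and 2.26 CPM at 0 h, 4.48, 4.73, 4.18 and 4.37 CPM at 1 h, and 79.3, 75.1, 81 and 72 CPM at 5 h. The lines overlapped at 0 h and at 1 h and were fully apart at 5 h, where Ptges averaged 36.9 ± 0.992 CPM in the Nur77 line and 76.9 ± 4.07 CPM in the GFP line (SD, n = 4 each). That 5 h difference was -1.06 ± 0.18 on the log2 scale, 2.08-fold lower in the Nur77 line (adjusted p = 4.14e-05), and it passed the threshold in each of 16 alternatives, with values from -1.09 to -1.04. Ptges rose 25.3-fold by 5 h in the Nur77 line and 40.6-fold in the GFP line. These responses start from 15 to 25 counts per library at 0 h in the Nur77 line and 20 to 50 in the GFP line. The difference of these responses was -0.68 ± 0.42 (adjusted p = 0.371), and -0.68 ± 0.19 (adjusted p = 0.0151) without the library standing apart. At 1 h the line difference of Ptges was 0.15 ± 0.26 (adjusted p = 0.656), and without that library, the highest of the Nur77 line at 10.2 CPM, it was -0.4 ± 0.13 (adjusted p = 0.0135).

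Ptges2 and Ptges3 encode the other prostaglandin E synthases, and Ptges3 is also known as the Hsp90 co-chaperone p23. Ptges3 ranged from 263 to 404 CPM in the Nur77 line and from 209 to 331 CPM in the GFP line over the 3 times. It rose with LPS by 5 h, 1.4-fold in the Nur77 line (adjusted p = 1.13e-05) and 1.32-fold in the GFP line (adjusted p = 0.00014). It was higher in the Nur77 line at 5 h, with a log2 fold change of 0.27 ± 0.08 (adjusted p = 0.00738). The 1 h difference was 0.25 ± 0.08 (adjusted p = 0.0132), and that call was lost without replicate 4 of the Nur77 line at 1 h or replicate 3 of the GFP line at 1 h, with adjusted p up to 0.0766. A processed pseudogene of Ptges3 is known in the mouse, so its counts are uncertain where reads could be shared. Ptges2 ranged from 11.4 to 20.2 CPM in the Nur77 line and from 16.2 to 24.5 CPM in the GFP line. It was lower in the Nur77 line at 1 h by -0.51 ± 0.11 on the log2 scale (adjusted p = 0.000359) and at 5 h (-0.32 ± 0.1, adjusted p = 0.0128). The 5 h call of Ptges2 was lost without replicate 1 of the Nur77 line at 5 h (adjusted p = 0.0732). At 0 h the line difference of Ptges2 was -0.24 ± 0.1 (adjusted p = 0.0714), and without the library standing apart its adjusted p was 0.0457. LPS lowered Ptges2 in the Nur77 line at 1 h (-0.4 ± 0.11, adjusted p = 0.00366), while in the GFP line its change was -0.14 ± 0.1 (adjusted p = 0.454). The difference between these 2 responses was not called (-0.27, 95% interval -0.57 to 0.04, adjusted p = 0.316).

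The receptor gene Ptger4 (EP4, chr15:5233399-5244187) rose with LPS in both lines and ended lower in the Nur77 line. Ptger4 had 0.564, 0.825, 0.714 and 0.713 CPM at 0 h, 1.79, 0.673, 2.44 and 1.79 CPM at 1 h, and 2.18, 1.87, 1.93 and 2.55 CPM at 5 h in the Nur77 line. Ptger4 in GFP libraries had 1.27, 0.684, 0.673 and 1.08 CPM at 0 h, 1.62, 1.5, 2.09 and 1.91 CPM at 1 h, and 5.86, 5.03, 5.09 and 5.34 CPM at 5 h. The GFP line thus went on rising between 1 h and 5 h (log2 fold change 1.59 ± 0.22, adjusted p = 1.37e-06), while the Nur77 line changed by 0.3 ± 0.24 in that interval (adjusted p = 0.296), and the difference between these 2 changes was not tested. At 5 h Ptger4 was 2.5-fold lower in the Nur77 line, with a log2 fold change of -1.32 ± 0.22 (adjusted p = 1.59e-05), and the call held in each of 16 alternatives, with values from -1.4 to -1.27. The level rests on 26 to 58 counts per library in the Nur77 line at 5 h and on 72 to 113 in the GFP line. The difference of the 5 h responses was -0.97 ± 0.39 (adjusted p = 0.141), and -0.97 ± 0.31 (adjusted p = 0.0373) without the library standing apart. At 1 h the rise was 2.42-fold in the Nur77 line (adjusted p = 0.001) and 1.94-fold in the GFP line (adjusted p = 0.015), and the GFP call was lost without replicate 3 of the GFP line at 0 h (adjusted p = 0.0715).

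Ptger2 (EP2, chr14:44988111-45003820) was the least abundant of the 10 genes and rose at 5 h. In the Nur77 line it had 0.242, 0.206, 0.476 and 0.195 CPM at 0 h, 0.0833, 0.404, 0.131 and 0.449 CPM at 1 h, and 1.32, 1.01, 1.41 and 1.73 CPM at 5 h. GFP libraries showed 0.591, 0.547, 0.757 and 0.271 CPM at 0 h, 0.498, 0.455, 0.523 and 0.28 CPM at 1 h, and 2.63, 1.78, 2.37 and 2 CPM at 5 h. By 5 h Ptger2 was 4.62-fold above 0 h in the Nur77 line (adjusted p = 1.79e-05) and 4.03-fold in the GFP line (adjusted p = 2.5e-06), and no change was called at 1 h. At 5 h it was lower in the Nur77 line, with a log2 fold change of -0.7 ± 0.27 (adjusted p = 0.0349), but the call was lost without any 1 of 5 of the 8 libraries compared, with adjusted p from 0.0573 to 0.106. Those libraries were replicates 1, 2 and 3 of the Nur77 line and replicates 1 and 3 of the GFP line at 5 h. The call was also lost with DESeq2 and with no filter on low counts. Ptger2 counts were 14 to 35 per library in the Nur77 line at 5 h and 27 to 52 in the GFP line. Its exons share 246 bases with Gm17173 and 144 with Gm49364 on the opposite strand, and the sources used here do not say whether counting used strand.

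Pla2g4a, the phospholipase gene (chr1:149829618-149961290), differed between the lines before LPS, and its LPS response differed between them. In the Nur77 line Pla2g4a had 291, 284, 284 and 306 CPM at 0 h, 295, 467, 300.2 and 294 CPM at 1 h, and 283, 297, 301 and 305 CPM at 5 h. Its GFP levels were 197, 216, 211 and 203 CPM at 0 h, 239.7, 233, 232 and 232 CPM at 1 h, and 339, 343, 341 and 339 CPM at 5 h. Apart from the 467 CPM library the Nur77 line stayed between 283 and 306 CPM throughout, while the GFP line stepped up and ended above it. Pla2g4a was 1.41-fold higher in the Nur77 line at 0 h (0.49 ± 0.1 on the log2 scale, adjusted p = 0.000169) and 1.45-fold higher at 1 h (0.53 ± 0.1, adjusted p = 5.27e-05). Without the library standing apart the 1 h value was 0.34 ± 0.04 (adjusted p = 5.3e-07). Its 5 h difference was -0.2 ± 0.09 (adjusted p = 0.0854), and -0.2 ± 0.04 without that library (adjusted p = 0.000214). LPS at 1 h changed Pla2g4a by 0.18 ± 0.1 in the GFP line (adjusted p = 0.235), and by 0.18 ± 0.04 without that library (adjusted p = 0.00199). By 5 h Pla2g4a rose 1.65-fold in the GFP line (adjusted p = 3.65e-07), and its change was 0.02 ± 0.09 on the log2 scale in the Nur77 line (adjusted p = 0.83). The difference of these responses was -0.69 ± 0.13 (95% interval -0.97 to -0.42, adjusted p = 0.00129), and it was called in each of 24 alternatives, with values from -0.71 to -0.66. Pla2g4a and Ptgs2 lie 139 kb apart on chromosome 1.

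Ptgs1, the gene of COX-1 (chr2:36216742-36258593), fell in both lines at 5 h and was not called between the lines at any time. In the Nur77 line it had 75.3, 76.2, 83.4 and 79.9 CPM at 0 h, 63.7, 144, 51.1 and 68.9 CPM at 1 h, and 26.7, 28, 31.2 and 28.4 CPM at 5 h. GFP libraries gave 74.3, 72.8, 78.4 and 66.2 CPM at 0 h, 68.7, 70.5, 63.2 and 66.9 CPM at 1 h, and 31.6, 29.8, 30.4 and 31.1 CPM at 5 h. The fall by 5 h was 2.76-fold in the Nur77 line (-1.46 ± 0.2 on the log2 scale, adjusted p = 1.8e-06) and 2.38-fold in the GFP line (-1.25 ± 0.2, adjusted p = 1.24e-05). At 1 h the Nur77 line changed by 0.05 ± 0.19 with all libraries (adjusted p = 0.844) and by -0.37 ± 0.08 without the library at 144 CPM (adjusted p = 0.000419). The line differences of Ptgs1 were 0.11 at 0 h (95% interval -0.29 to 0.51), 0.28 at 1 h (-0.13 to 0.68) and -0.11 at 5 h (-0.53 to 0.32). The 1 h value turned to -0.14 ± 0.08 without the library at 144 CPM (adjusted p = 0.121), and it was 0.45 ± 0.17 and called without replicate 3 of the Nur77 line at 1 h (adjusted p = 0.0362). Ptgs1 exons share 148 bases with Gm43621 on the opposite strand.

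The balance of the cyclooxygenases can be read per transcript length. The ratio of Ptgs2 to Ptgs1, in CPM per kb of transcript, was 0.0255 ± 0.00193 at 0 h, 2.01 ± 0.477 at 1 h and 28.9 ± 3.82 at 5 h in the Nur77 line (SD, n = 4 at each time). GFP libraries averaged 0.0138 ± 0.00523 at 0 h, 1.16 ± 0.0781 at 1 h and 36.2 ± 1.16 at 5 h (SD, n = 4 at each time). The ratio per library was 1.39 to 2.43 in the Nur77 line at 1 h, against 1.07 to 1.26 in the GFP line, and 25 to 32.4 in the Nur77 line at 5 h, against 34.8 to 37.4 in the GFP line. The lines did not overlap at 0, 1 or 5 h, and the Nur77 line was the higher at 0 h and 1 h and the lower at 5 h. No test was made of this ratio.

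**Figure D2:**
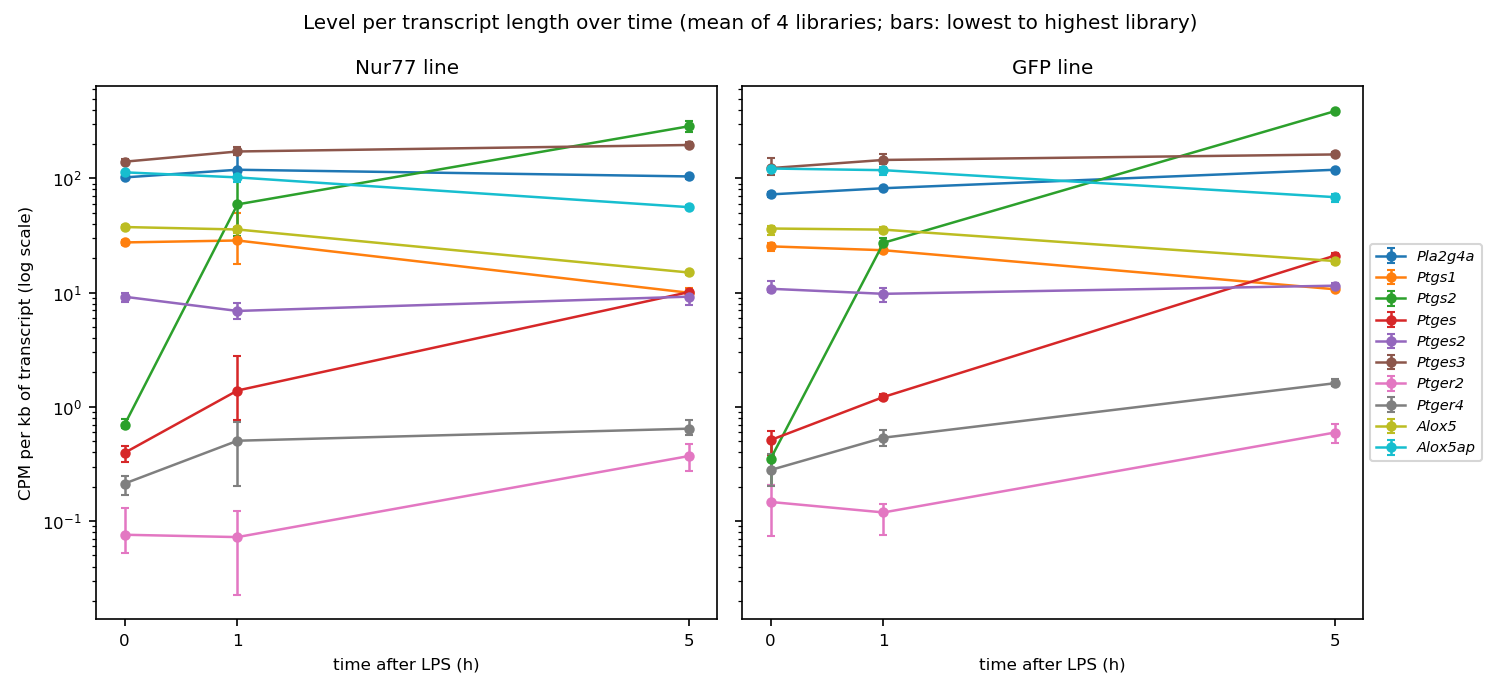
Mean level of each gene in CPM per kb of transcript (log scale) against time after LPS in hours, Nur77 line left and GFP line right, with bars from the lowest to the highest of 4 libraries. Ptgs2 starts near the bottom and ends first of the 10 genes in both lines, at 286 CPM per kb in the Nur77 line and 388 in the GFP line.

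Per transcript length, the order of the 10 genes changed with LPS. At 0 h Ptges3, Alox5ap and Pla2g4a led in both lines, at 140, 113 and 102 CPM per kb in the Nur77 line and 123, 122 and 72.4 CPM per kb in the GFP line. Ptgs2 had only 0.7 CPM per kb in the Nur77 line and 0.351 in the GFP line, and Ptges, Ptger4 and Ptger2 averaged at most 0.512 CPM per kb in either line. In the GFP line at 0 h the ranges of neighbours overlapped between Ptges and Ptgs2, between Ptgs2 and Ptger4, between Ptger4 and Ptger2, and between Ptges3 and Alox5ap. At 5 h Ptgs2 led at 286 ± 27.3 CPM per kb in the Nur77 line and 388 ± 7.34 in the GFP line (SD, n = 4 each), ahead of Ptges3 and Pla2g4a. Ptges had 10.1 CPM per kb in the Nur77 line, where its range overlapped that of Ptgs1, and 21.1 in the GFP line, where it overlapped that of Alox5. The receptor genes stayed last at every time, and at 5 h Ptger4 had 0.644 CPM per kb in the Nur77 line and 1.61 in the GFP line.

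The leukotriene genes Alox5 and Alox5ap fell in both lines at 5 h. Alox5 (chr6:116410071-116461178) had 106, 105, 109.8 and 102 CPM at 0 h, 94, 105, 101 and 103 CPM at 1 h, and 40.1, 43.9, 42.3 and 43.4 CPM at 5 h in the Nur77 line. Alox5 in GFP libraries had 109, 104, 108 and 90 CPM at 0 h, 94.6, 99, 105 and 103 CPM at 1 h, and 50.2, 57.1, 52.4 and 53.1 CPM at 5 h. The lines overlapped before LPS and at 1 h, and all Nur77 libraries were below all GFP libraries at 5 h. The fall by 5 h was 2.5-fold in the Nur77 line (-1.32 ± 0.06 on the log2 scale, adjusted p = 1.2e-15) and 1.93-fold in the GFP line (-0.95 ± 0.06, adjusted p = 6.78e-13). The difference of the responses was -0.38 ± 0.09 (95% interval -0.55 to -0.2, adjusted p = 0.00659), called in each of 24 alternatives with values from -0.4 to -0.32. At 5 h Alox5 was lower in the Nur77 line by a log2 fold change of -0.33 ± 0.06 (adjusted p = 0.000119).

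Alox5ap, which presents arachidonate to 5-lipoxygenase, ranged from 114 to 116 CPM at 0 h, 94.9 to 111 CPM at 1 h and 55.5 to 59.7 CPM at 5 h in the Nur77 line. The GFP libraries ranged from 119.9 to 127 CPM at 0 h, 107 to 129 CPM at 1 h and 62.8 to 73.6 CPM at 5 h. It fell 2.02-fold by 5 h in the Nur77 line (adjusted p = 2.14e-13) and 1.77-fold in the GFP line (adjusted p = 9.98e-12). Alox5ap was lower in the Nur77 line at 1 h by -0.2 ± 0.06 on the log2 scale (adjusted p = 0.00687) and at 5 h (-0.29 ± 0.06, adjusted p = 0.00039). The 1 h call was lost with only the 2 groups compared in the fit (adjusted p = 0.0785). The difference of its 5 h responses was -0.19 ± 0.09 (adjusted p = 0.204). Its exons share 189 bases with Gm19719 on the opposite strand.

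**Figure D3:**
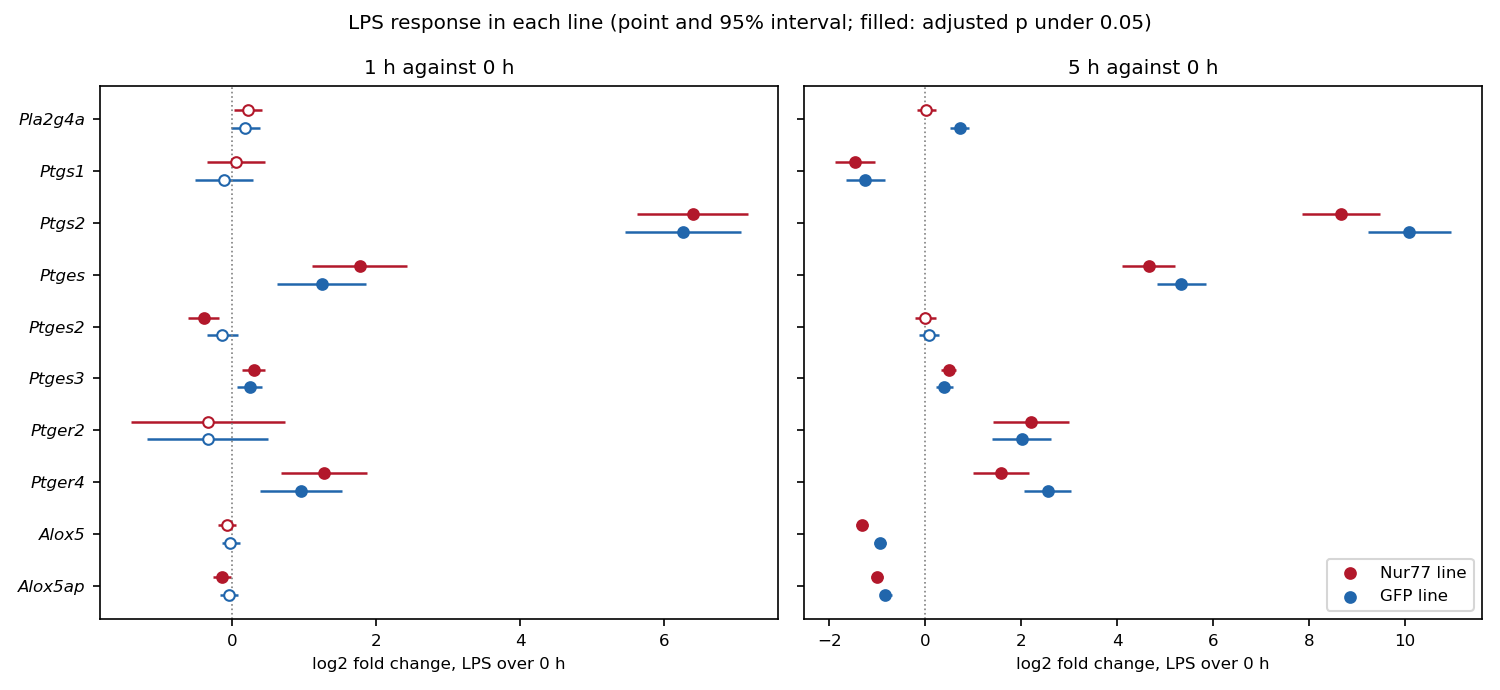
Log2 fold change of LPS at 1 h (left) and 5 h (right) over 0 h for each gene, with the Nur77 line (red) above the GFP line (blue), lines for the 95% interval and filled points where the adjusted p is under 0.05. At 5 h Ptgs2 reaches 8.67 in the Nur77 line and 10.09 in the GFP line, and Ptgs1, Alox5 and Alox5ap lie left of 0 in both.

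At 1 h of LPS the response was narrower. In the Nur77 line 4 of the 10 genes rose (Ptgs2, Ptges, Ptges3 and Ptger4) and 2 fell (Ptges2 and Alox5ap), against 44.4% called over all tested genes (22.5% higher, 21.8% lower). In the GFP line the same 4 genes rose and none fell, where 17.4% were called (9.75% higher and 7.68% lower). Beside the count of 0, the number of members with an unadjusted p under 0.05 was 4 in either direction in the GFP line, and DESeq2 also called 4. Ptges rose 3.4-fold in the Nur77 line (1.77 ± 0.32 on the log2 scale, adjusted p = 0.000107) and 2.36-fold in the GFP line (1.24 ± 0.3, adjusted p = 0.00443), and the Nur77 value was 1.22 ± 0.16 without the library standing apart. The Alox5ap call in the Nur77 line (-0.15 ± 0.06) stood at an adjusted p of 0.04999 and was lost in 12 of 15 alternatives. Among these was the omission of the library standing apart (adjusted p = 0.0616). The Ptges3 call in the GFP line (0.24 ± 0.08, adjusted p = 0.0451) was lost in 8 of 16 alternatives, with adjusted p up to 0.221.

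Between 1 h and 5 h of LPS, 4 of the 10 genes rose and 3 fell in the Nur77 line, and 5 rose and 3 fell in the GFP line. Of all tested genes, 55.4% were called in the Nur77 line over this interval (26.9% higher and 28.6% lower) and 55.2% in the GFP line (27.5% higher and 27.7% lower). Ptgs2 rose a further 4.84-fold in the Nur77 line (2.27 ± 0.27 on the log2 scale, adjusted p = 4.25e-07) and 14.2-fold in the GFP line (3.83 ± 0.29, adjusted p = 4.96e-10). Ptges rose 7.45-fold in the Nur77 line (2.9 ± 0.22, adjusted p = 9.53e-11) and 17.2-fold in the GFP line (4.1 ± 0.22, adjusted p = 2.96e-13). Without the library standing apart these values in the Nur77 line were 2.85 ± 0.12 for Ptgs2 and 3.44 ± 0.11 for Ptges. Ptgs1, Alox5 and Alox5ap fell over this interval in both lines, with log2 fold changes from -1.52 (Ptgs1, -1.1 without that library) to -0.87 in the Nur77 line and from -1.13 to -0.78 in the GFP line.

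**Figure D4:**
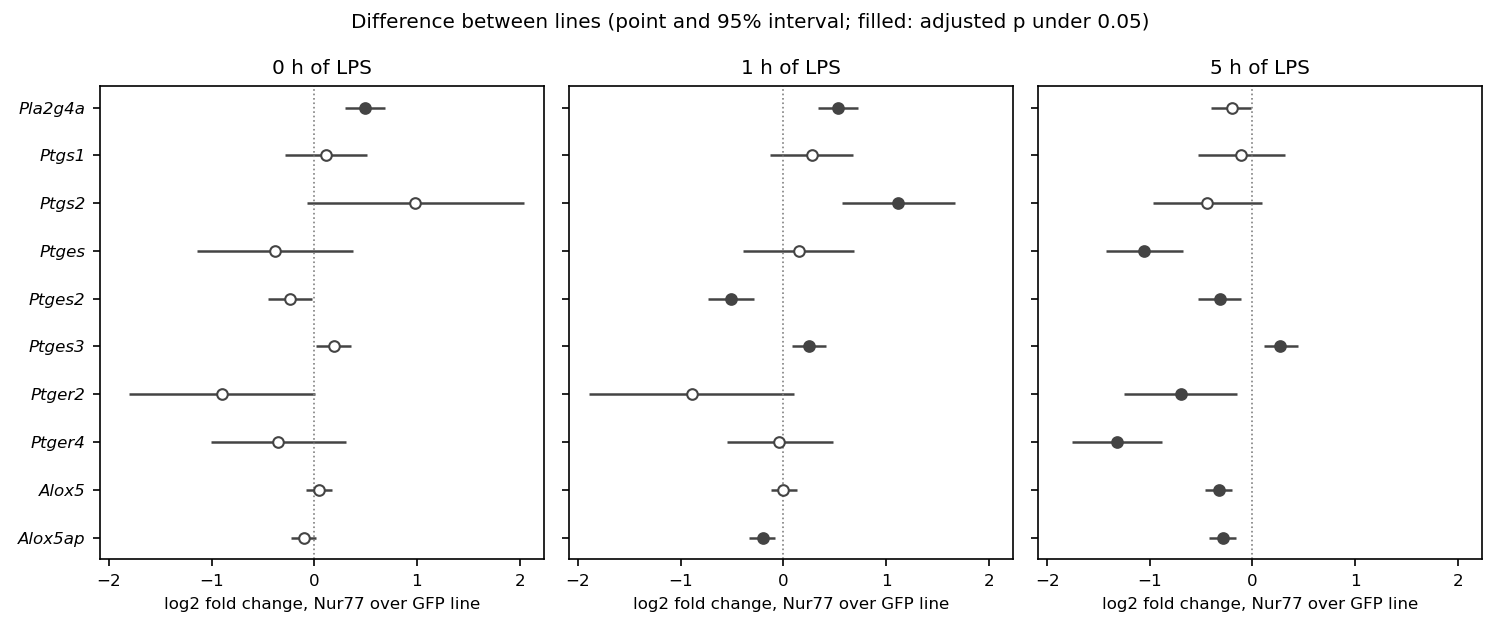
Log2 fold change of the Nur77 over the GFP line at 0, 1 and 5 h of LPS for each gene, with the 95% interval and filled points where the adjusted p is under 0.05. The filled points lie right of 0 for Pla2g4a at 0 h, and at 5 h 6 of 7 filled points lie left of 0, with Ptger4 at -1.32 and Ptges at -1.06.

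Set side by side, the line differences moved toward lower levels in the Nur77 line at 5 h. At 0 h 1 of the 10 genes was called, higher in the Nur77 line, where 39.9% of all tested genes were called (20.3% higher and 19.7% lower). At 1 h 3 were higher and 2 lower, where 51.2% were called (26.4% higher and 24.8% lower). At 5 h 1 was higher (Ptges3) and 6 were lower (Ptges, Ptges2, Ptger2, Ptger4, Alox5 and Alox5ap), where 46.4% of tested genes were called (22.0% higher and 24.4% lower). The median log2 fold change of the 10 members was -0.03 at 0 h, 0.08 at 1 h and -0.33 at 5 h, against 0.02, 0.01 and 0 over all tested genes. The counts at 0 h and 1 h were at or under the share of all genes, and the 5 h count was above it. The 5 h count was not stable: leaving out each library in turn gave 5 to 9 members, and DESeq2 called 6. The lowest of these counts is near the share of all genes. Both the Ptges2 and the Ptger2 call at 5 h were lost on the omission of single libraries. Without the library standing apart 3 members were called at 0 h, 6 at 1 h and 9 at 5 h. The 5 h count gained Ptgs2 and Pla2g4a, while the count over all genes at 5 h was 6328 in place of 5655. Over all genes, omitting each library in turn gave 4196 to 5460 calls at 0 h (4870 with all libraries). At 1 h it gave 5558 to 6738 (6245 with all libraries), so the counts of members are read against counts over all genes that also moved. For the interaction of line and LPS, none of the 10 members was called at 1 h, where 1.13% of tested genes were called (0.615% higher and 0.516% lower), none had an unadjusted p under 0.05, and DESeq2 called 0. At 5 h 2 were called, Pla2g4a and Alox5, both lower in the Nur77 line, where 7.88% of tested genes were called (2.75% higher and 5.12% lower). Without that library 5 members were called at 5 h, with Ptgs2, Ptges and Ptger4 added, while the count over all genes was 1681 in place of 961. The 1 h and 5 h interactions share the 0 h libraries.

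Genes with the most similar profile were sought for the 4 LPS-induced members, by the root mean square difference of centred log2 CPM over the 6 group means. Acod1 was nearest to Ptgs2, at 0.558 against a range of 10.08 in Ptgs2, followed by Il1a at 0.916 and Gbp5 at 0.96. For Ptges, whose range was 5.63, the nearest were Il27 at 0.236, Gbp6 at 0.308 and Fas at 0.31. Agrn at 0.167, Znrf1 at 0.189 and Dram1 at 0.209 were nearest to Ptger2, and Msantd3 at 0.162, Zfp703 at 0.181 and Slc7a7 at 0.182 to Ptger4, with ranges of 2.71 in Ptger2 and 2.74 in Ptger4. Acod1 shared with Ptgs2 the order of the lines, with mean log2 CPM of 1.82 at 0 h, 8.94 at 1 h and 11.79 at 5 h in the Nur77 line, against 0.88, 8.32 and 12.07 at the same times in the GFP line. Il1a did not, at -0.44, 6.14 and 9.67 in the Nur77 line and 0.79, 7.23 and 10.6 in the GFP line. These are descriptions over 6 points.

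**Figure D5:**
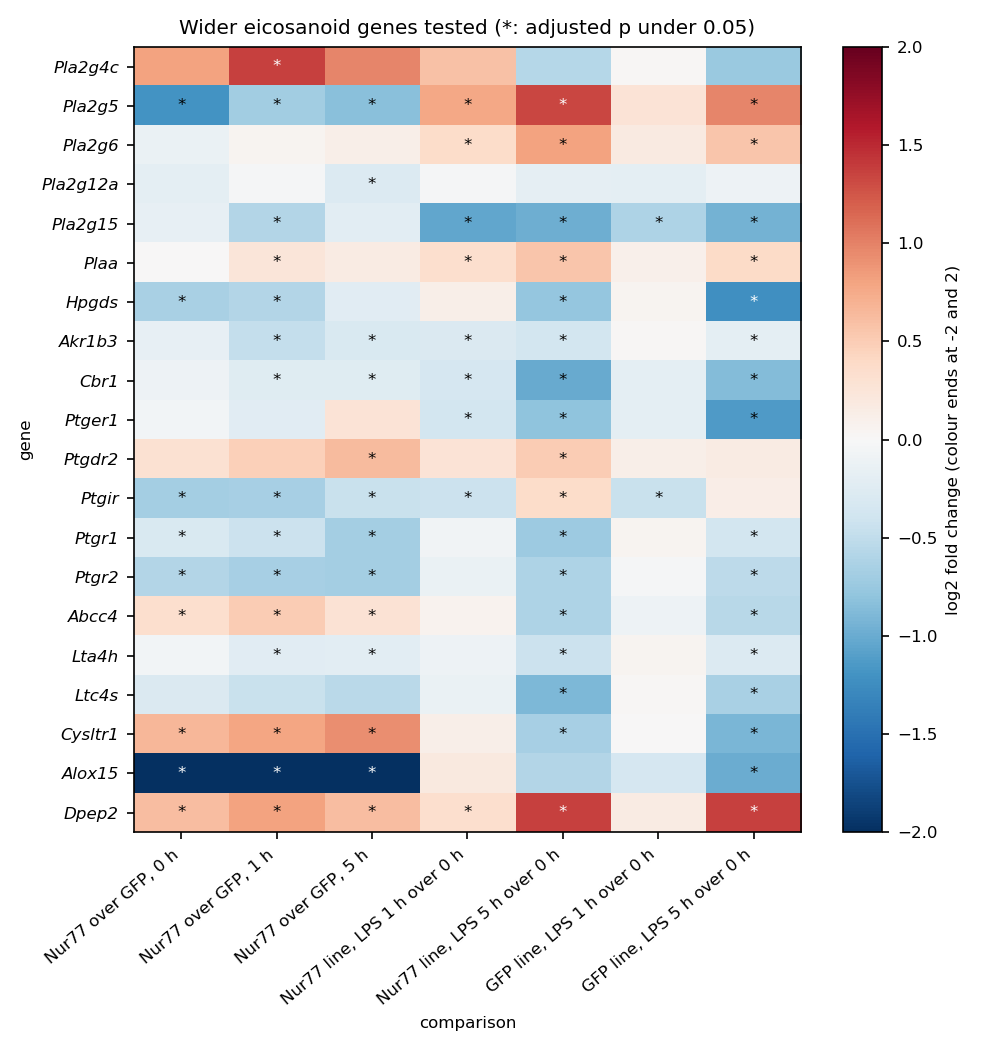
Log2 fold change (colour, ending at -2 and 2) of the 20 other eicosanoid genes that passed the filter, in 7 comparisons of line and of LPS, with an asterisk where the adjusted p is under 0.05. Cysltr1, Dpep2 and Abcc4 are red with an asterisk in all 3 columns of the Nur77 over the GFP line. Pla2g5, Ptgir, Ptgr1, Ptgr2 and Alox15 are blue with an asterisk in the same 3 columns.

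The rest of the eicosanoid pathway was followed in 42 further genes, of which 20 passed the filter on low counts. Between the lines, 3 of the 20 were higher and 6 lower in the Nur77 line at 0 h, 5 higher and 10 lower at 1 h, and 4 higher and 9 lower at 5 h. Over all tested genes the shares called were 39.9% at 0 h, 51.2% at 1 h and 46.4% at 5 h. Cysltr1, a receptor for cysteinyl leukotrienes, was higher in the Nur77 line by log2 fold changes of 0.67 at 0 h (adjusted p = 2.73e-05), 0.79 at 1 h (2.67e-06) and 0.93 at 5 h (3.85e-07). Alox15, the 12/15-lipoxygenase gene, was lower in the Nur77 line by -2.91 at 0 h (adjusted p = 0.000189), -2.38 at 1 h (0.000997) and -2.52 at 5 h (0.00369), on sums of only 5 to 10 counts per group in the Nur77 line and 36 to 69 in the GFP line. Pla2g5, a secreted phospholipase A2 gene, averaged 29.7 ± 2.46 CPM in the Nur77 line and 68.2 ± 3.62 CPM in the GFP line at 0 h (SD, n = 4 each, log2 fold change -1.19, adjusted p = 3.21e-05), and was lower at 5 h by -0.83 (adjusted p = 0.000752). The prostacyclin receptor gene Ptgir was lower by -0.68 at 0 h (adjusted p = 0.00082), and Ptgr1, a prostaglandin reductase gene, by -0.68 at 5 h (adjusted p = 3.16e-07). Pla2g4c, another cytosolic phospholipase A2 gene, was higher at 1 h by 1.36 (adjusted p = 0.0164), from 7 to 26 counts per library in the Nur77 line and 2 to 8 in the GFP line, and the dipeptidase gene Dpep2, whose product acts on leukotriene D4, by 0.8 (adjusted p = 2.79e-08).

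Between the lines at 5 h, where 46.4% of tested genes were called, the genes were also counted by list. Of the 6 tested genes on the list of phospholipases and lipases (Pla2g4c, Pla2g5, Pla2g6, Pla2g12a, Pla2g15 and Plaa) none was higher and 2 were lower. Of the 3 terminal prostanoid synthase and reductase genes none was higher and 2 were lower. Of the 3 other prostanoid receptors 1 was higher and 1 lower, of the 3 transport and breakdown genes 1 was higher and 2 were lower, and of the 5 leukotriene and lipoxygenase genes 2 were higher and 2 lower. At 5 h of LPS against 0 h, 6 of the 20 genes rose and 11 fell in the Nur77 line, and 4 rose and 12 fell in the GFP line, against 66.7% called over all tested genes in the Nur77 line and 62.6% in the GFP line. The 3 tested synthase and reductase genes (Hpgds, Akr1b3 and Cbr1) and the 3 transport and breakdown genes (Ptgr1, Ptgr2 and Abcc4) all fell in both lines. Dpep2 had a log2 fold change of 1.36 in the Nur77 line (adjusted p = 2.45e-13) and of 1.37 in the GFP line (2.67e-13), and Pla2g5 rose by 1.33 in the Nur77 line (2.72e-06) and by 0.97 in the GFP line (8.32e-05). The lysosomal phospholipase gene Pla2g15 changed by -0.98 in the Nur77 line (adjusted p = 1.16e-07) and by -0.94 in the GFP line (1.39e-07). Cbr1, a carbonyl reductase gene that acts on prostaglandin E2, changed by -1.01 in the Nur77 line (1.34e-11) and by -0.86 in the GFP line (1.29e-10). In the GFP line Hpgds, the haematopoietic prostaglandin D synthase gene, changed by -1.22 (adjusted p = 2.88e-11), the EP1 receptor gene Ptger1 by -1.14 (3.58e-08) and Alox15 by -0.99 (0.0373). In the Nur77 line Hpgds changed by -0.78 (adjusted p = 1.1e-07), Ptger1 by -0.81 (7.15e-06) and Alox15 by -0.59 (0.589). At 1 h, 4 of the 20 genes rose and 5 fell in the Nur77 line, and 0 rose and 2 fell in the GFP line, where 4 had an unadjusted p under 0.05 and DESeq2 called 2. The shares over all tested genes at 1 h were 44.4% in the Nur77 line and 17.4% in the GFP line. The 5 h response differed between the lines for 1 of the 20, where 7.88% of all tested genes were called, so the count was under that share. This was Hpgds, by 0.43 (adjusted p = 0.0478), which fell in both lines and by less in the Nur77 line. Its call was close to the threshold, which Ptgr1 narrowly missed (-0.37, adjusted p = 0.0501).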

How the data were processed

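Per the labels' protocols, RNA was column-purified and made into libraries with the KAPA mRNA HyperPrep kit. The submitters' processing notes list HISAT2 2.1.0, CASAVA 1.8.2 and build mm10. How reads were counted, with which strand setting and which annotation, is not given in the sources used here. Estimated counts, not normalized, were deposited by the authors for 42361 RefSeq transcripts in 24 columns, with every value a multiple of 0.5 (tolerance 1e-09). Symbols came from the RefSeq gene table of GRCm38.p6 for 42198 transcripts and from GENCODE for 70, and 93 kept their own identifiers. Isoforms repeat counts, so each of the 25160 genes is given by the transcript of highest mean (8193 genes had more than 1).

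Estimated counts were rounded to whole numbers. Genes were filtered with filterByExpr by group, scaled by TMM (trimmed mean of M-values, factors 0.896 to 1.14) and fitted with 6 group means over 24 libraries (18 residual degrees of freedom, common biological coefficient of variation 0.0979) with robust quasi-likelihood in edgeR 4.0.16 (R 4.3.3). Benjamini-Hochberg adjustment ran over the 12198 tested genes, with calls at an adjusted p under 0.05. In all there were 11 comparisons: the lines at each time, LPS times within each line, and their interaction (the LPS change in Nur77 minus that in GFP). Standard errors are the absolute log2 fold change over the square root of F. Levels are TMM-adjusted CPM. Levels per kb use the exonic bases of the gene's GENCODE transcript that lie inside the RefSeq span.

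The 10 genes were chosen by name, and the wider lists hold textbook genes. From the wider lists, up to 4 called genes with the largest change were named per comparison of the lines or of 5 h LPS. Genes named for 5 h LPS in 1 line are given with their value in the other line. The members, lists and rules were chosen with earlier results of these data known. The alternatives were DESeq2 1.42.0, DESeq2 size factors in edgeR, no filter, 1 CPM in 4 libraries, only the groups compared, a replicate block, the mean over transcripts and the omission of each library. The fitting step was tested on simulated data.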

Additional observations from a re-analysis of the deposited data

Results flagged for a closer look

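Of 60 gene and group pairs examined, 4 held a library whose gap to the nearest other library exceeded Dixon's 95% critical value for 4 libraries, and chance flags about 1 in 20 such groups. Both Pla2g4a and Ptgs2 were far above the others in replicate 2 of the Nur77 line at 1 h, with 467 CPM against 294 to 300.2 CPM for Pla2g4a and 523 CPM against 138 to 200.2 CPM for Ptgs2. That library also had the highest Ptgs1 (144 CPM) and Ptges (10.2 CPM) and the lowest Ptger4 (0.673 CPM) of its group. Ptges2 stood at 24.5 CPM in replicate 3 of the GFP line at 0 h, against 19.6 to 20.3 CPM in the other libraries. Ptger2 stood at 0.476 CPM in replicate 3 of the Nur77 line at 0 h, against 0.195 to 0.242 CPM, all on 3 to 8 counts.

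The 5 h LPS response differed between the lines for Pla2g4a by -0.69 on the log2 scale (adjusted p = 0.00129) and for Alox5 by -0.38 (adjusted p = 0.00659). In both cases the interaction term was tested in the fit over all 24 libraries.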

How the results depend on the processing

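Of 110 results of a member in a comparison, 84 kept their call in every alternative and 26 changed it in at least 1. No value called in the edgeR fit over all 24 libraries changed sign, but uncalled values did. Without replicate 2 of the Nur77 line at 1 h, Ptges between the lines at 1 h went from 0.15 to -0.4 (adjusted p = 0.0135). Likewise Ptgs1 for LPS at 1 h in the Nur77 line went from 0.05 to -0.37 (adjusted p = 0.000419). DESeq2 called 2 members between the lines at 0 h (1 in the edgeR fit) and 499 genes for the interaction at 1 h (138 in the edgeR fit). With only the groups compared in the fit, 4 members were called between the lines at 0 h, 3 at 1 h and 5 for the interaction at 5 h. The genes called between the lines at 0 h and at 1 h then stayed within 1.5 times their number with all groups. In such fits 3471 genes were called for LPS at 1 h in the Nur77 line (5410 with all groups). For the interaction 47 were called at 1 h and 2089 at 5 h (961 with all groups). Leaving out each library in turn gave 1 to 3 members between the lines at 0 h, 4 to 6 at 1 h and 5 to 9 at 5 h. Over all genes these omissions gave 4196 to 5460 at 0 h, 5558 to 6738 at 1 h and 5059 to 6328 at 5 h. For LPS at 1 h in the GFP line they gave 2 to 5 members and 1726 to 2643 genes. For the interaction at 5 h they gave 2 to 5 members and 725 to 1681 genes, and for the interaction at 1 h 74 to 1597 genes. The highest count of genes for the interaction at 1 h came without replicate 1 of the Nur77 line at 1 h. For the interaction at 5 h it came without replicate 2 of that group, and the causes were not tested. Replicate numbers did not pair the samples: deviations of 60 same-numbered pairs correlated from -0.295 to 0.173, and 3 of 24 libraries correlated best with their own number. With the replicate block 91 genes were called for the interaction at 1 h, and every count of members stayed within 1.5 times its value without the block. Counts of 2 to 58 per library limit Ptger2 and, outside the GFP line at 5 h, Ptger4. The 0 h levels of Ptges and Ptgs2 are limited in the same way. At 0 h Ptges had 15 to 25 counts per library in the Nur77 line and 20 to 50 in the GFP line. Ptgs2 at 0 h had 37 to 54 in the Nur77 line and 11 to 41 in the GFP line.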

Other observations

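Ptgs2os2, a noncoding RNA gene named for its place beside Ptgs2, was picked after its values were seen. It had 3.71, 4.4, 3.33 and 4.54 CPM at 0 h, 7.08, 14.2, 7.45 and 5.2 CPM at 1 h, and 36.6, 28.1, 29.6 and 32.4 CPM at 5 h in the Nur77 line. In the GFP line it had 4.98, 5.61, 4.8 and 6.64 CPM at 0 h, 11, 9.56, 8.19 and 8.41 CPM at 1 h, and 43.1, 40.4, 39.6 and 42.2 CPM at 5 h. Ptgs2os2 was 7.95-fold higher at 5 h than at 0 h in the Nur77 line (2.99 ± 0.2 on the log2 scale, adjusted p = 2.03e-12) and 7.45-fold higher in the GFP line (2.9 ± 0.18, adjusted p = 1e-12). Its Nur77 libraries were all below the GFP libraries at 0 h and at 5 h, but neither difference was called (-0.47 ± 0.22, adjusted p = 0.0955 at 0 h, and -0.38 ± 0.16, adjusted p = 0.0537 at 5 h).

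Among the other eicosanoid genes, 3 genes picked after their values were seen were at or near 0. Ptger3, the EP3 receptor gene, had 1 count in all over the Nur77 libraries at 5 h and 0 in the other groups. Hpgd, the gene of the prostaglandin dehydrogenase, had 2 counts in all over the GFP libraries at 5 h and 0 in the other groups. Tbxas1, the thromboxane synthase gene, had group means from 0.239 to 0.358 CPM in the Nur77 line and from 0.339 to 0.455 CPM in the GFP line.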
